A study of Mus musculus with 2 samples.

Results

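The histone genes of the Hist clusters are the mouse genes whose symbols begin with Hist1h, Hist2h, Hist3h or Hist4. The symbol alone chose them, and 67 of the 32285 genes in the count tables carry one. They comprise 6 genes of the linker histone H1 and 61 core histone genes, made up of 18 for H2A, 18 for H2B, 12 for H3 and 13 for H4. A member was used if it had at least 10 unique molecular identifiers (UMIs, which count captured mRNA molecules) over both libraries, and 64 did. The members just inside that minimum were Hist1h2ba with 18 UMIs and Hist1h2ao with 21, and those outside were Hist2h2aa2 with 2, Hist1h4m with 1 and Hist1h2bq with 0.

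The counts come from single-cell RNA sequencing of mouse somitic gastruloids, cultures in which stem cells give rise to tissues of the embryonic trunk. One library was untreated and one had received dTAG-13, a compound that directs degradation of proteins fused to the FKBP12F36V tag. Both groups came from the E14 triple-reporter stem cell line with an HA-FKBP12F36V degron tag on endogenous Zeb2, a zinc-finger transcription factor. In both, 300 cells were seeded per aggregate, 3 µM CHIR99021 (an inhibitor of the kinase GSK3) was given at 48 h, and 10% Matrigel was added at 96 h. The treated group received dTAG-13 at 100 nM at 72 h and again at 96 h. The control is labelled untreated, although the series' design names DMSO, so whether it received vehicle is not settled by the labels. About 32 gastruloids were pooled per library and 10000 live-sorted cells were loaded. With 1 library in each group there was no replicate, so no test of treatment was possible, and treatment and library cannot be told apart. All intervals below cover counting error only.

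Linker histone H1 binds the DNA entering and leaving the nucleosome, and the core histones form the octamer around which DNA is wrapped. The clustered genes are mostly replication-dependent: their mRNAs accumulate in S phase, when newly made DNA must be packaged, and usually end in a stem-loop bound by the protein Slbp instead of in a poly(A) tail. The library chemistry primes on runs of adenine, so a mature histone mRNA without a tail is captured poorly, and its UMI count is not its abundance. Many copies encode the same protein with nearly the same sequence, and their reads can be hard to assign to one gene.

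After filtering there were 6231 untreated cells with 140019633 UMIs and 6688 dTAG-13 cells with 151601709 UMIs. The median cell held 20073 and 20207 UMIs. The libraries shared 10 cell barcodes among these cells. Zeb2 mRNA stood at 67.9 and 94.6 CPM in the untreated and dTAG-13 libraries, where CPM are UMIs scaled to a common library total. The degron acts on the protein, so the mRNA does not check the label. Among measures of RNA quality, the 13 mitochondrial transcripts summed to 45857 and 47786 CPM, and the nuclear RNA Malat1 stood at 3288 and 4711 CPM.

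The gene annotation (GENCODE M21, build GRCm38) placed the members in 6 blocks. On chromosome 13 there were 18 between 21715763 and 21837530, 5 between 22035164 and 22043676 and 31 between 23531050 and 23934851. Chromosome 3 held 10, chromosome 11 held the 2 Hist3 genes and chromosome 6 held Hist4h4. A single exon was annotated for 62 of the 67. The histone stem-loop, searched for on the transcript strand as 16 bases with 6 paired bases on each side of a 4-base loop, was present in the annotated 3′ end of 45 members (67.2%). It occurred in 70 of 21625 protein-coding genes (0.324%), of which 46 were members when all their transcripts were searched. The most frequent forms among the members follow, and capitals mark the paired stem. Such a stem-loop is usual in replication-dependent histone mRNAs, but its presence alone does not show that a member's mRNA accumulates in S phase.
Form in 25 members, of types H1, H2A, H2B and H3: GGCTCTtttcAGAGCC
Form in 7 members, all H4: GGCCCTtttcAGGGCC
Form in 6 members, among them Hist1h3c and Hist1h3e: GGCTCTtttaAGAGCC
Annotated transcripts ran at least 100 bases past the stem-loop in 23 members and ended within 100 bases of it in 22. In the remaining 22 none was found in the annotated transcript, among them Hist1h1b, whose annotation holds no bases after the stop codon.

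The 14 bases before the stem-loop held a median of 7 adenines over the 45 sites, with a range of 3 to 13. Only 3 sites had 10 or more. The stretches below are the stem-loop and the 14 bases before it in the members that differed most between the libraries, in a near-identical copy, and in members without a 1.5-fold decrease, with the stem in capitals.
Hist1h2ap: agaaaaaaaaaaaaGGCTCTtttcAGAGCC
Hist1h2ao: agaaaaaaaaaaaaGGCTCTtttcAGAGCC
Hist1h2ae: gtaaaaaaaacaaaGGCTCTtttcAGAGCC
Hist1h3c: gctatttaaaaaaaGGCTCTtttaAGAGCC
Hist1h4d: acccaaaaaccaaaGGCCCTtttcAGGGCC
Hist3h2ba: gcccccaacccaaaGGCTCTtttcAGAGCC
Hist1h2ap and Hist1h2ao carried an uninterrupted run of 12 adenines directly before the stem, and Hist1h2ae a run of 8 ending 4 bases before it. Hist1h3c had a run of 7, Hist1h4d one of 5 and Hist3h2ba one of 3.

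The linker genes held most of the histone signal. Summed over the 6 linker genes, the level was 1447 CPM in untreated and 1167 CPM in treated gastruloids, which was 77.7% and 77.1% of all member UMIs. The 61 core genes together reached 415 and 346 CPM. Since each captured molecule counts once whatever its length, these CPM values compare UMIs between genes without a length correction, though differences in capture between tailed and untailed mRNAs remain in them. Only 13 members reached 10 CPM in both libraries, and 21 of the 64 stayed under 1 CPM in both.

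Hist1h1b, which encodes H1.5, was the highest member, at 1001 CPM untreated and 773 CPM with dTAG-13, a log2 ratio of -0.37. Its annotated transcript shared no 56-base window, the length of the sequenced read, with any other gene. Hist1h1e (H1.4) stood at 261 and 227 CPM (-0.20), and Hist1h1a (H1.1) at 103 and 84.0 CPM (-0.29). These members were lower in the treated library without reaching 1.5-fold. Hist1h1c (H1.2), at 41.6 CPM in each library, and Hist1h1d (H1.3), at 40.8 and 41.3 CPM, were level. Hist1h1t, the testis form, was near the limit of counting at 0.364 and 0.409 CPM. Hist1h1e overlaps Hist1h2be on the same strand, and 441 of its 1875 windows also occur in that gene.

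**Figure D1:**
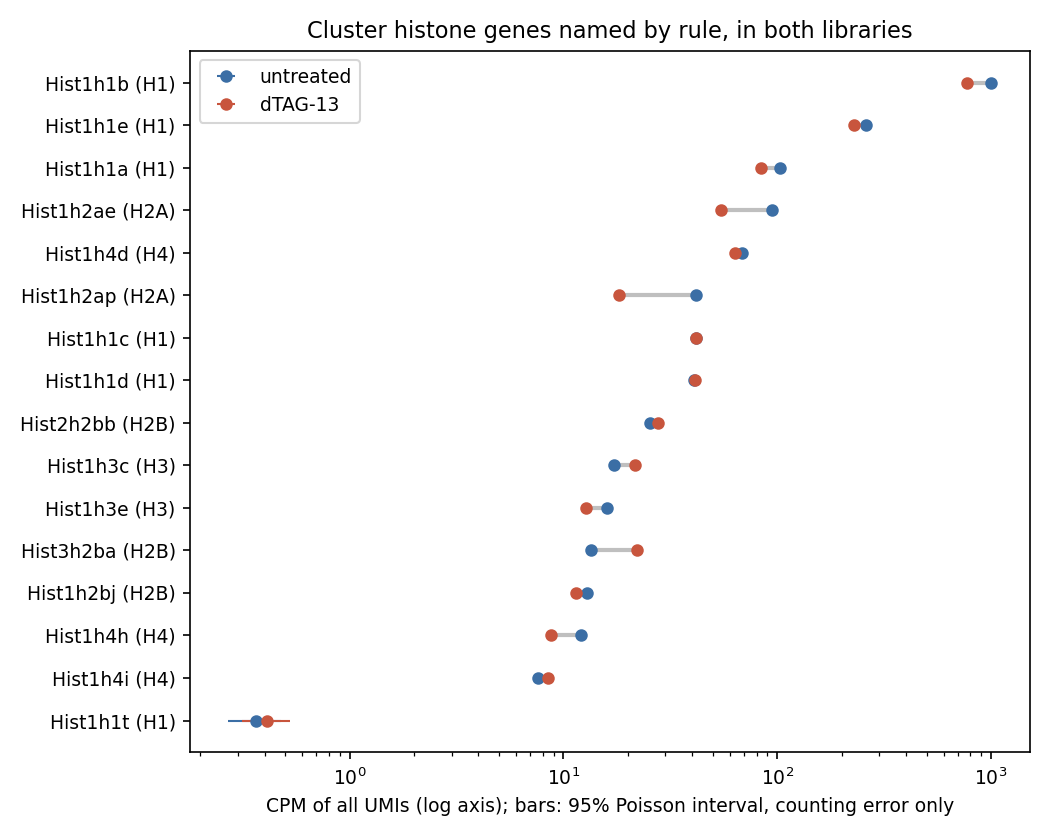
Level of the 16 members named by rule, in CPM of all UMIs on a log axis, for the untreated (blue) and dTAG-13 (red) libraries, with 95% Poisson intervals that are mostly narrower than the points. Hist1h1b lies near 1000 CPM, and the widest gaps between libraries belong to Hist1h2ap, Hist1h2ae and Hist3h2ba.

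At 1.5-fold or more on log2(CPM + 1), 2 of the 64 members (3.12%) were lower with dTAG-13 and 1 was higher. Over all 19470 genes with at least 10 UMIs, 0.832% were lower by that much, 2.32% were higher and 3.15% differed either way. With a prior of 0.1 CPM in place of 1, which gives more weight to sparse members, 8 were lower by that much, and 4 were in cells thinned to 5000 UMIs. At the prior of 1 CPM the 2 lower members were both H2A genes. Hist1h2ap stood at 41.9 CPM (95% Poisson interval 40.8 to 43.0) untreated and at 18.1 CPM (17.5 to 18.8) with dTAG-13, a log2 ratio of -1.16. Hist1h2ae stood at 94.4 CPM (92.8 to 96.1) untreated and at 54.6 CPM (53.5 to 55.8) with dTAG-13, a log2 ratio of -0.78. In each case the counting intervals of the libraries lay far apart. Their stem-loops, printed above, follow 13 and 11 adenines in 14 bases, and Hist1h2ao was the only other site with 10 or more.

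Among the 40 measured members with a stem-loop and fewer than 10 adenines before it, log2 ratios ran from -0.55 in Hist1h2ab to 0.66 in Hist3h2ba. Hist1h2ao shares the bases of Hist1h2ap there, but it had 21 UMIs in all, at 0.0500 and 0.0923 CPM (0.06). At that level the added 1 CPM holds the ratio near 0. The counting interval without it ran from -0.52 to 2.44, so the direction was not detectable. Of the 427 windows of 56 bases in Hist1h2ap, 397 also occur in Hist1h2ao and 30 in no other gene. Depending on how shared reads were counted, the level given for Hist1h2ap may contain that of its copy or rest on few windows. In Hist1h2ae 384 of 649 windows were its own. Hist1h3c, whose run of 7 adenines also abuts the stem, had a ratio in the other direction. Runs of 8 or more adenines also lay in the annotated 3′ end of 4 other members, at least 314 bases past the stop codon. None of these differed by 1.5-fold on log2(CPM + 1). They were Hist1h2ac with a run of 15 (-0.47), Hist1h2be with 11 (-0.35), Hist1h2bc with 8 (0.23) and Hist1h1d with 8 (0.02). Hist1h2ac stood at only 2.55 and 1.56 CPM, and with a prior of 0.1 CPM it was lower by 1.5-fold or more. The adenine count was examined after the ratios had been seen. Whether priming at these bases had a part in the difference was not tested.

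**Figure D2:**
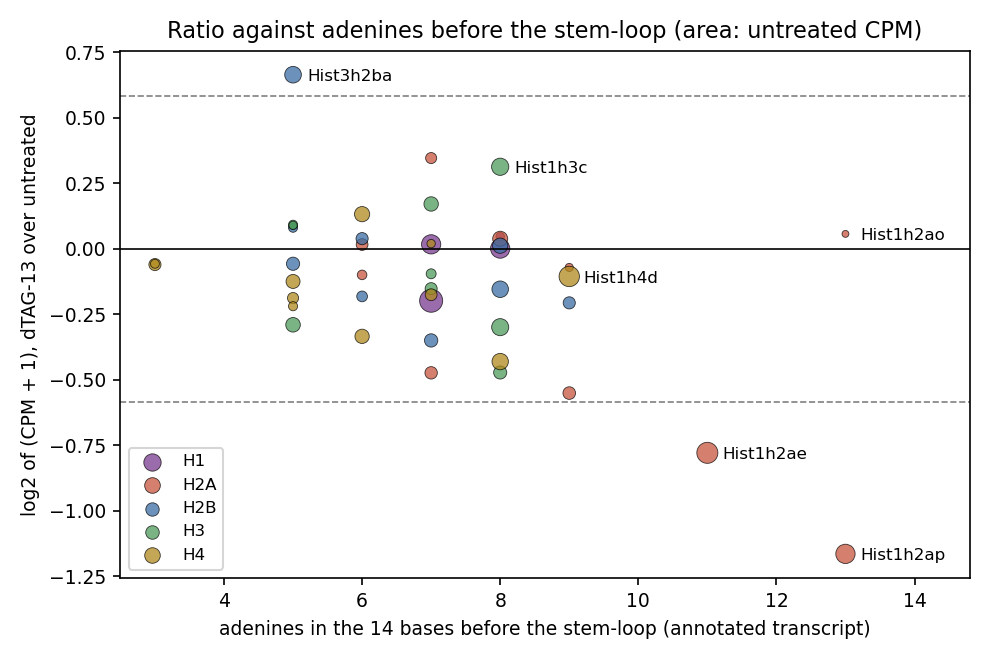
Log2 ratio of (CPM + 1), dTAG-13 over untreated, against the number of adenines in the 14 bases before the stem-loop, for the 43 measured members with a stem-loop, coloured by histone type with area growing with untreated CPM. Hist1h2ap at 13 and Hist1h2ae at 11 adenines are below the lower dashed line of 1.5-fold. Hist1h2ao at 13 is drawn near 0, but with 7 and 14 UMIs its direction was not detectable.

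Without Hist1h2ap and Hist1h2ae the core sum stood at 279 and 274 CPM, a log2 ratio of -0.03, compared with -0.26 for all core genes. The H2A sum was 166 and 99.6 CPM (-0.73), and 29.3 and 26.9 CPM (-0.12) without those 2 genes. The remaining core types were closer to level. H2B summed to 84.9 and 93.3 CPM (0.14), H3 to 56.4 and 56.2 CPM (0.00) and H4 to 108 and 97.2 CPM (-0.15). The linker sum differed by -0.31, and by -0.18 without Hist1h1b, so the lower linker level was spread over Hist1h1b, Hist1h1e and Hist1h1a.

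Only Hist3h2ba, an H2B gene of the Hist3 pair on chromosome 11, was higher by 1.5-fold or more. It stood at 13.5 CPM (95% Poisson interval 12.9 to 14.1) untreated and at 22.0 CPM (21.2 to 22.7) with dTAG-13, a log2 ratio of 0.66. This is 1.56% of the members, and 2.32% of all genes were higher, so a single member in this direction is no more than the background. With a prior of 5 CPM its ratio was 0.54, short of 1.5-fold, and in thinned cells 0.57. Its neighbour Hist3h2a, an H2A gene, stood at 1.46 and 2.12 CPM (0.35). Part of the Hist3h2a transcript overlaps Trim17, with which it shares 654 of 2091 windows.

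The other named core members differed by less than 1.5-fold. Hist1h4d, the highest H4 gene, stood at 68.6 and 63.7 CPM (-0.11). Hist2h2bb, an H2B gene that shares 172 of its 326 windows with the overlapping gene model Gm42743, stood at 25.5 and 27.8 CPM (0.12). Of the H3 genes, Hist1h3c was higher with dTAG-13, at 17.2 and 21.6 CPM (0.31), and Hist1h3e lower, at 16 and 12.8 CPM (-0.30). Hist1h2bj gave 12.8 and 11.4 CPM (-0.15), Hist1h4h 12.1 and 8.75 CPM (-0.43) and Hist1h4i 7.63 and 8.46 CPM (0.13). The 48 members that are not among those named lay between 0.0462 and 7.84 CPM, and 27 of them had a ratio below 0. On log2(CPM + 1), Hist1h2ab (-0.55) and Hist3h2a (0.35) were their extremes, and the added 1 CPM draws the ratios of sparse members toward 0.

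Over the 64 members, 36 (56.2%) had a ratio below 0 and the median was -0.06, where over all genes 41.3% were below 0 and the median was 0.02. The core median was -0.06 and the linker median -0.10. By cluster, 34 of 52 measured Hist1 genes (65.4%) and 1 of 9 Hist2 genes were below 0. The Hist2 ratios lay between -0.06 and 0.17, and the counting intervals of 8 of the 9 included 0, so their direction was mostly not detectable at this depth. The Hist1 sum stood at 1804 and 1443 CPM, and the Hist2 sum at 39.2 and 42.1 CPM. A median of 53.7% of a member's windows occurred in no other gene, and single-copy values of members with few such windows are uncertain. The sources used here do not say how reads matching several copies were counted.

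**Figure D3:**
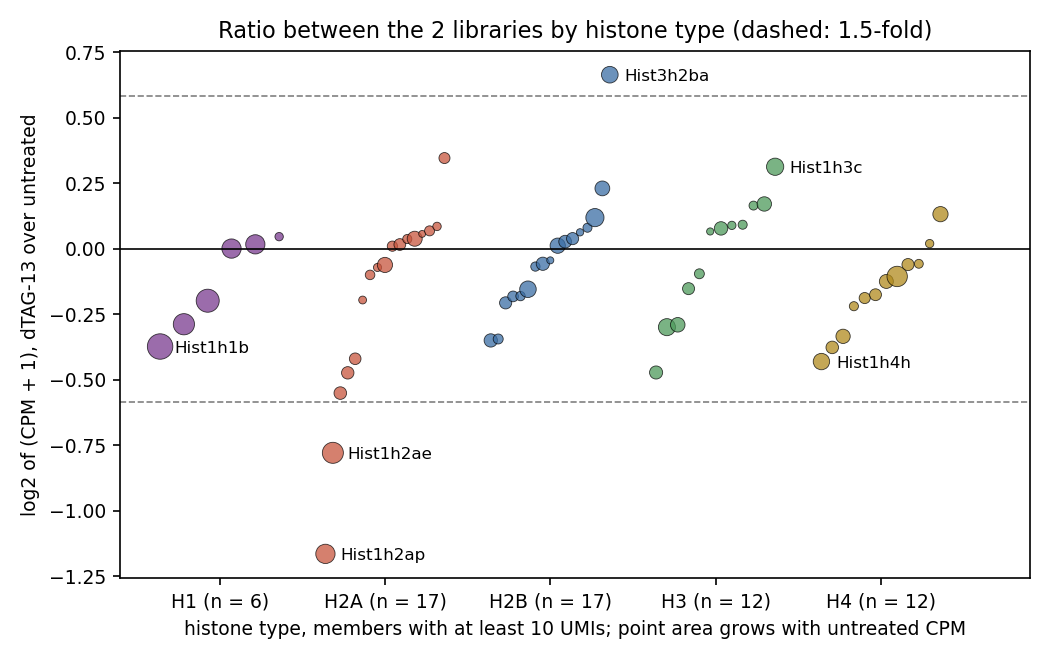
Log2 ratio of (CPM + 1), dTAG-13 over untreated, of the 64 members with at least 10 UMIs, by histone type and ordered within a type, with point area growing with untreated CPM and dashed lines at 1.5-fold. Hist1h2ap and Hist1h2ae lie below the lower line, and Hist3h2ba is above the upper one.

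The promoters were compared because members of a type share motifs there. RefSeq (GRCm38.p6) gave a promoter, from 250 bases before to 50 after the gene's start, for 62 of the 67. The motif CCAAT, searched for on both strands like those that follow, was in 53 of them (85.5%) and in 37.9% of all 27025 promoters, counting the first listed start of each gene. By type it was in all 6 H1, 18 H2A, 16 H2B and 10 H3 promoters but in 3 of 12 for H4. TATAAA was in 35 (56.5%, against 14.2% of all). The octamer ATTTGCAT was in 13 (21%, against 1.75%), which were 7 H2A and 6 H2B promoters. Every match in an H2A promoter was on the strand opposite the gene, and every match in an H2B promoter on the gene's own strand. Windows of neighbouring H2A and H2B genes can overlap, so the same site can count for both genes. The counts of all these motifs are therefore not counts of independent promoters. Of the members, Hist1h2be alone has a further listed start, whose window also holds the octamer. Counted over every listed start, 14 members (22.6%), 7 of them H2B, and 1.97% of all genes had it, and the other motif counts of the members were the same. AAACACA, a sequence known from H1 promoters, was in 9 (14.5%, against 7.14%), 5 of them among the 6 H1 genes. The upstream part of 3 promoters is printed for the members that differed by 1.5-fold, on the gene's strand, with every match to these motifs in capitals.
Hist1h2ap, chr13:21833508-21833725, minus strand: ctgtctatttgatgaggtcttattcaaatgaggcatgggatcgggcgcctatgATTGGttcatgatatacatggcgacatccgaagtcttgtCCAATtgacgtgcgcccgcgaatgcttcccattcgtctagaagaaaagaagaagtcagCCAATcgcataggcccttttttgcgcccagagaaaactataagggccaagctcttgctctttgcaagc
Hist1h2ae, chr13:23571221-23571470, minus strand: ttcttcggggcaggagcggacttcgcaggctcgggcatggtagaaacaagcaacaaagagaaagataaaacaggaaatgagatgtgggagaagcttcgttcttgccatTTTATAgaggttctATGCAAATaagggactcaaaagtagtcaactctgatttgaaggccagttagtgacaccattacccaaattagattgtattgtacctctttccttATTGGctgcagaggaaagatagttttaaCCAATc
Hist3h2ba, chr11:58948661-58948910, plus strand: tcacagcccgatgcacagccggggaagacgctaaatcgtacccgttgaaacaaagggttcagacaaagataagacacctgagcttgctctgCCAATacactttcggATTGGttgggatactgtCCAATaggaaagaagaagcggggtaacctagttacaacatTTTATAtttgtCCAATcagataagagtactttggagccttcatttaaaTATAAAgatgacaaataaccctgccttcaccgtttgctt
Hist1h2ap had 3 CCAAT matches and none of the other motifs. Hist1h2ae had 2 CCAAT matches and 1 match each to TATAAA and the octamer. The latter matches were both on the strand opposite the gene, 142 and 128 bases before its start. The Hist1h2ae window overlaps that of the H2B gene Hist1h2bg on the opposite strand, which stood at 1.27 and 1.00 CPM (-0.18). Hist1h2bg has TATAAA and the octamer on its own strand, 43 and 59 bases before its start, so these sites are not particular to Hist1h2ae. The Hist1h2ap window likewise overlaps that of Hist1h2br, at 0.636 and 0.561 CPM. Hist3h2ba had 4 CCAAT and 2 TATAAA matches and no octamer.

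Each cell was then placed by its UMIs from 40 S phase genes, which include no histone gene. Slbp, Nasp and Casp8ap2 were kept off the list. It does hold Ccne2, Chaf1b and Mcm2, which are also among the histone transcription or chaperone genes below. Cells were thinned to 5000 UMIs, which kept 6144 untreated and 6607 dTAG-13 cells, and both libraries together were divided into 4 bins of like size at 15, 20 and 26 S phase UMIs. The cuts fell on values held by 564, 606 and 469 cells, so neighbouring bins are ranges and not separate states. The highest bin held 22.6% of untreated cells (Clopper-Pearson interval 21.6 to 23.7) and, with treatment, 21.8% (20.8 to 22.8). The lowest held 26.2% (25.1 to 27.3) and 29.3% (28.2 to 30.4).

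The linker sum followed the S phase genes more steeply than the core sum, though neither class was uniform. From the lowest to the highest bin the linker sum went from 806 to 2029 CPM in untreated cells, 2.52-fold, and from 658 to 1690 CPM in dTAG-13 cells, 2.57-fold. The core sum went from 308 to 513 CPM, 1.66-fold, and from 270 to 415 CPM, 1.54-fold. By core type the folds in untreated and dTAG-13 cells were 2.06 and 2.13 for H2A and 1.79 and 1.80 for H3. They were 1.41 and 1.18 for H2B, and 1.35 in each library for H4. Hist1h1b holds the largest part of the linker sum, and the linker genes Hist1h1e and Hist1h1c rose less than the H2A sum. The contrast is thus one of sums and not of every gene in a class. The 95% intervals of the linker sum's fold were 2.44 to 2.59 and 2.49 to 2.65, and those of the core sum's fold, 1.58 to 1.75 and 1.46 to 1.62, did not reach them. These intervals cover counting error only and not the spread between cells, so they do not test the difference between the classes. The sum of the histone genes outside the clusters, whose mRNAs mostly have poly(A) tails, stood at 0.99-fold and 1.02-fold.

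Of the 38 members with at least 100 thinned UMIs over both libraries, 27 were at least 1.5-fold higher in the highest bin and 3 at least 1.5-fold lower. Among 11897 genes outside the S phase list with as many UMIs, 4.98% were higher and 5.83% lower by that much. The count was 5 of 5 for H1, 7 of 8 for H2A, 7 of 10 for H2B, 5 of 7 for H3 and 3 of 8 for H4. The median fold was 2.54 for H1 and 1.38 for H4. A further 26 measured members were too sparse for this comparison.

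The linker genes were uneven in this. Hist1h1b was 2.78-fold higher in the highest than in the lowest bin of untreated cells, at 1445 against 520 CPM, and 3.05-fold higher with dTAG-13, at 1176 against 385 CPM. Hist1h1a was 2.90-fold and 3.04-fold higher, and Hist1h1d 2.78-fold and 2.37-fold. Hist1h1e, at 1.78-fold and 1.63-fold, and Hist1h1c, at 1.70-fold and 1.38-fold, differed less. In the core set Hist1h2ae was 2.09-fold and 2.18-fold higher, and Hist1h2ap 2.02-fold and 2.40-fold. Hist1h4d stood at 1.33-fold in both libraries.

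The 3 members that ran the other way were Hist3h2ba, Hist3h2a and Hist1h2bc. Hist3h2ba went from 21.1 CPM in the lowest to 14.2 CPM in the highest bin of untreated cells, 0.67-fold, and from 32.2 to 20.8 CPM, 0.65-fold, with dTAG-13. Over both libraries joined, Hist3h2a was at 0.50-fold and the H2B gene Hist1h2bc at 0.60-fold. In both libraries all 3 had their highest level in the cells with the fewest S phase UMIs. Hist3h2ba and Hist3h2a carry the stem-loop form found in 25 members, and none was found in the annotated transcript of Hist1h2bc. The stem-loop alone therefore did not mark the members that were higher in the highest bin. For Hist3h2a the untreated fold rested on 27 UMIs in the lowest and 13 in the highest bin, with an interval of 0.26 to 1.12. The bins were not split by cell class, and Hist3h2ba differed widely between classes, as given below. The part of class makeup in these folds was not tested.

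**Figure D4:**
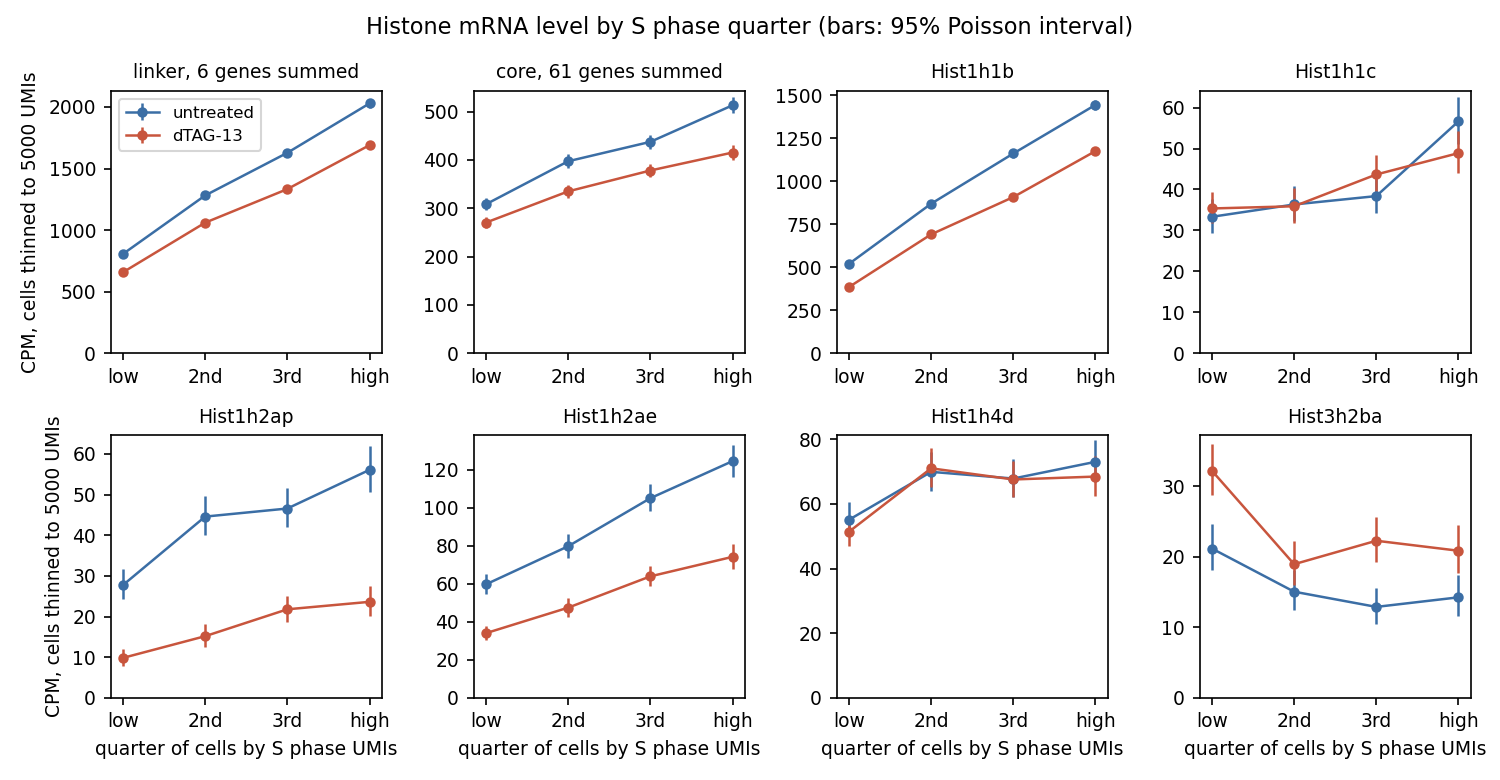
Level in CPM of the linker sum, the core sum and 6 members in the 4 bins of cells by S phase UMIs, each cell thinned to 5000 UMIs, for untreated (blue) and dTAG-13 (red) cells, with 95% Poisson intervals. Linker, core, Hist1h1b, Hist1h2ap and Hist1h2ae climb from the lowest to the highest bin in both libraries, and Hist3h2ba starts highest in the lowest bin.

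The library differences of Hist1h2ap, Hist1h2ae, Hist3h2ba and the linker sum kept their direction within each bin. Hist1h2ap had log2 ratios of -1.41, -1.50, -1.06 and -1.21 from the lowest to the highest bin, and Hist1h2ae -0.79, -0.74, -0.71 and -0.74. The linker sum had -0.29, -0.27, -0.29 and -0.26, and the core sum -0.19, -0.25, -0.21 and -0.30. Without Hist1h2ap and Hist1h2ae the core sum had 0.04, 0.00, 0.03 and -0.07. Hist3h2ba had 0.58, 0.31, 0.74 and 0.52. Of the 27 members that were higher in the highest bin, 16 had a ratio below 0 between the libraries, with a median of -0.06, and of the other 11 it was 7, with a median of -0.12.

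When cells were also divided at 43 UMIs of 52 G2 and M phase genes, the linker and Hist1h2ap levels were highest in cells high for S phase genes only. There the linker sum stood at 1936 and 1590 CPM in the untreated and treated libraries, against 1018 and 715 CPM in cells low for both lists. Hist1h2ap stood at 57.2 and 24.6 CPM in the former and at 38.6 and 10.2 CPM in the latter. The library differences were less even over these groups than over the bins. The linker sum differed by -0.51 in cells low for both lists and by -0.28 in cells high for S phase genes only. In cells high for both lists, and in those high for G2 and M genes only, it differed by -0.20. In the same order of groups Hist1h2ap differed by -1.82, -1.19, -0.92 and -1.29. Hist3h2ba was highest in the cells low for both, at 22.2 and 34.5 CPM.

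Across cells, Spearman's rho between linker UMIs and S phase UMIs was 0.34 in 6144 untreated and 0.36 in 6607 dTAG-13 cells, and for core UMIs 0.19 and 0.17. Core and linker UMIs of a cell had rho of 0.61 and 0.53. Hist1h1b with Hist1h1e gave 0.52 and 0.48, the highest of the pairs computed among the top members in each library, and Hist1h1b with Hist1h2ae gave 0.46 and 0.37. Cells of a library share their preparation and were thinned to one depth, and the values describe these cells only. Of 5452 other genes, Top2a (topoisomerase II), H3f3b (the replacement histone H3.3) and Pclaf (a PCNA-binding factor) had the counts most like the core sum, with mean rho of 0.23, 0.22 and 0.18. The next were Fbxo5, Esco2, Dnmt1, Prc1, Dnajc9, Dut and Atad2, at 0.15 or less. Top2a is on the G2 and M list, and of all these genes only Atad2 is on the S phase list.

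Cell classes were rebuilt here by clustering both libraries jointly and were named from marker genes. A number stands for a cluster without a name. In the 12 classes with at least 100 cells in each library, Hist1h2ap was lower by 1.5-fold or more in all 12, with log2 ratios from -1.42 in spinal cord-like to -0.82 in neuromesodermal progenitor-like cells. Hist1h2ae was lower by that much in 10, with a range of -0.94 to -0.28. The exceptions were cluster 3 (led by Sfn, Upk1a and Dlx5), at 68.7 and 56.5 CPM, and neuromesodermal progenitor-like cells, at 89.4 and 63.4 CPM. Hist1h1b was below 0 in all 12 and lower by 1.5-fold in endoderm-like cells alone, at 542 and 274 CPM (-0.98). The spinal cord-like class joins cluster 7, with 714 untreated and 127 dTAG-13 cells, and cluster 12, with 144 and 193, so its makeup differed between the libraries. The linker sum ran from -0.69 in endoderm-like cells to -0.02 in cluster 3.

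Hist1h2ap was lower in classes with little and with much Zeb2 mRNA. Zeb2 protein was not measured here, and whether the Hist1h2ap difference depends on Zeb2 was not tested. In pluripotent-like cells Zeb2 stood at 2.02 and 2.19 CPM, and Hist1h2ap at 28.3 and 14.1 CPM (-0.96). In endoderm-like cells Zeb2 stood at 10.2 and 10.5 CPM, and Hist1h2ap at 29.3 and 11.4 CPM (-1.29). In spinal cord-like cells, with the highest Zeb2 level of 99.0 and 200 CPM, Hist1h2ap stood at 47.1 and 17.0 CPM (-1.42). Notochord-like cells had the lowest values of Hist1h2ap, 20.5 and 8.96 CPM. In the other 11 classes the untreated values began at 28.3 CPM, above the highest treated value of 22.9 CPM.

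The core sum without Hist1h2ap and Hist1h2ae stayed between -0.26 and 0.17 over the classes, and the S phase list between -0.12 and 0.03. Hist1h3c ran from 0.00 to 0.63, with 1 class at 1.5-fold or more. When clusters were formed without histone and cell cycle genes, giving 10 such classes, Hist1h2ap was lower by 1.5-fold or more in 10, Hist1h2ae in 7, and Hist3h2ba higher in 0. Weighting class levels by class shares, the part of the ratio from changed shares was -0.06 for Hist1h2ap, -0.07 for Hist1h2ae and -0.01 for the linker sum. The part within classes was -1.11, -0.71 and -0.31.

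**Figure D5:**
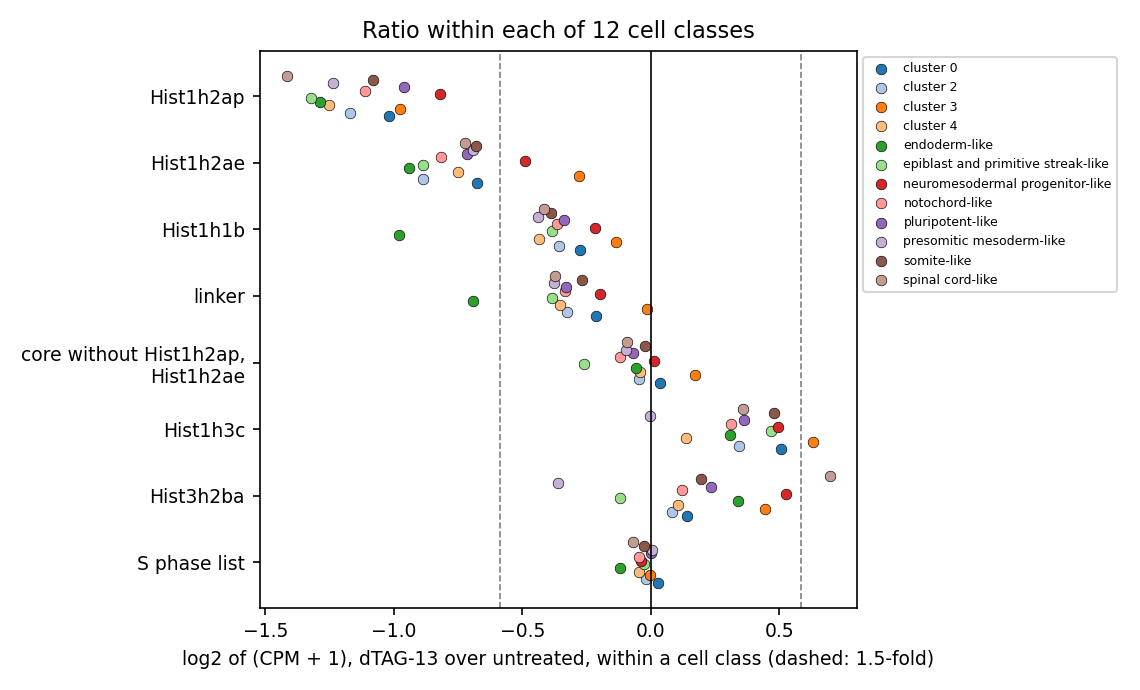
Log2 ratio of (CPM + 1), dTAG-13 over untreated, within each of 12 cell classes (one colour each) for selected members, the linker sum, the core sum without Hist1h2ap and Hist1h2ae, and the S phase list, with dashed lines at 1.5-fold. All 12 points of Hist1h2ap and 10 of Hist1h2ae lie beyond the lower line, and the S phase list stays near 0.

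Hist3h2ba differed more between classes than between libraries. It was highest in notochord-like cells, at 55.2 CPM untreated and 60.1 CPM with dTAG-13, and in cluster 0 (led by Pim2, Pou3f1 and Wnt8a), at 31.4 and 34.7 CPM. It was lowest in epiblast and primitive streak-like cells, at 1.71 and 1.50 CPM, and in pluripotent-like cells, at 2.86 and 3.54 CPM. Within classes its ratio ran from -0.36 in presomitic mesoderm-like to 0.70 in spinal cord-like cells, and 1 of 12 classes reached 1.5-fold. The part from changed class shares was 0.39 and that within classes 0.27. Cluster 0 held 279 untreated and 1207 dTAG-13 cells and the notochord-like class 247 and 528. The 8 notochord markers summed to 50.4 and 75.2 CPM over the libraries, and none was at 0 in either. Of them 3 were higher by 1.5-fold or more and 3 had a ratio below 0, the lowest at -0.16. The part of these cells in the whole-library difference of Hist3h2ba, beyond the share given above, was not tested.

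Genes that supply, process or replace cluster histones showed no 1.5-fold difference. That held for 12 transcription factors and cofactors of histone genes, 12 genes of histone mRNA 3′ processing, 5 of histone mRNA decay, 17 histone chaperones and 11 measured histone genes outside the clusters, with medians of 0.02, 0.01, -0.07, -0.05 and 0.06. Slbp, the stem-loop binding protein, stood at 156 and 143 CPM (-0.12), and Casp8ap2, a factor of histone locus bodies, at 178 and 166 CPM (-0.10). The chaperone gene Asf1b stood at 37.4 and 30.8 CPM (-0.28), and Lsm1, a decay factor, at 101 and 84.5 CPM (-0.25). The nonsense-mediated decay helicase Upf1, which also takes part in histone mRNA decay, stood at 40.7 and 46.1 CPM (0.18). Of the histone genes outside the clusters, the linker variant H1fx gave 208 and 245 CPM (0.23) and the replacement histone gene H3f3a 1061 and 952 CPM (-0.16). None of the 40 S phase or 52 G2 and M phase genes passed 1.5-fold either. The replication clamp gene Pcna, at 174 and 148 CPM (-0.23), was among the S phase genes of largest ratio. The sums of these lists were 4129 and 4068 CPM and 9583 and 10048 CPM.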

How the data were processed

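The deposited values are whole-number UMI counts per gene and cell, made by the authors with Cell Ranger 6.1.2 on mm10, per the submitters' processing notes. Cells with at least 1000 genes and at most 10% mitochondrial UMIs were kept. Scrublet's automatic threshold marked 1 and 0 barcodes and was not used. The highest scores were removed at 0.8% per 1000 barcodes (424 and 496 barcodes). UMIs were summed per library, scaled to CPM and compared on log2(CPM + 1), with exact Poisson and conditional intervals. Members and lists were chosen with earlier results of these data known. Named are the 15 members of highest mean CPM, the measured linker genes, members of at least 20 CPM differing 1.5-fold, and list genes of largest ratio; Malat1, Hist3h2a, Hist1h2bc, Hist1h2ao, Hist1h2ab, Hist1h2ac, Hist1h2be, Hist1h2bg and Hist1h2br were chosen after their values were seen. Clusters came from scanpy 1.11.5 and leidenalg 0.10.2 (2000 variable genes, 9 of them members, 30 components, 15 neighbours, resolution 1.0). Ratios and bins were tested on simulated data.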

Additional observations from a re-analysis of the deposited data

How the results depend on the processing

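No paired analysis was possible because each group had 1 library, and none could be left out. Over the alternatives run, the sums, medians and S phase folds kept their sign in 72 of 72 cases, and no called value reversed. A fold is above 0 by construction, so its sign could not change. With the counts of called members included, 18 of 92 comparisons were marked as moved from the main value, as were 20 of 160 for the named members. Ratios of the 16 named members kept their sign in 153 of 160. The 7 others were Hist1h1c and Hist1h1d with TMM factors (-0.04 and -0.03), DESeq2 size factors (-0.05 and -0.03) and thinning (0.00 and -0.02), and Hist1h1t with thinning (-0.09). The 2 members lower with dTAG-13 became 8 with a prior of 0.1 CPM (all genes 2.60%), adding Hist1h2ab, Hist1h2ac, Hist1h2ah, Hist1h2ai, Hist1h2bn and Hist1h3f, and 4 in cells thinned to 5000 UMIs (1.19%), adding Hist1h2ai and Hist1h3f. Hist1h2ap ran from -1.29 to -1.02 and Hist1h2ae from -0.83 to -0.74 over 10 settings. The 1 higher member, Hist3h2ba, became 0 with a prior of 5 CPM (its ratio 0.54) and 0 in thinned cells (0.57). With edgeR TMM factors and DESeq2 size factors the summed core ratio moved to -0.30 and -0.31, the summed linker ratio to -0.35 and -0.36, and the linker median to -0.14 and -0.15. With 3 bins of cells the core fold was 1.52 untreated and 1.44 with dTAG-13, and the linker fold 2.18 and 2.21. Thinned to 10000 UMIs the linker fold was 2.73 and 2.96, and the core ratio in the second of 4 bins -0.15. Adding Slbp, Nasp and Casp8ap2 to the S phase list gave an untreated linker fold of 2.42. Where not set by the setting's own construction, the cause was not tested. Depth limits the 26 measured members with under 100 thinned UMIs, whose S phase fold is not given.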
